A study of Mus musculus with 8 samples.

Results

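A library of activated regulatory T (aTreg) cells labelled Brg1-reexpressed was compared with a library of aTreg cells labelled Brg1-deleted, 1 RNA sequencing library a side. All genes with an FPKM (sequenced fragments scaled to exon length and library size) of at least 1 in either library were taken, which gave 11587 of the 53465 gene identifiers in the files. Hemoglobin genes (6), immunoglobulin genes (107) and Y-linked genes (5) were set aside, and the other 11469 genes were compared. Next to the FPKM minimum, Myo6 was kept at 1.0004 in the deleted library and Alg10b fell outside at 0.9998.

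The series holds 8 libraries of mouse Treg cells, of which 6 are from total Treg cells. Both aTreg libraries were made from spleen and lymph node of C57BL/6 mice aged 3 to 4 weeks, on day 7 after tamoxifen (TAM). By the methods, the trap allele was made on a mixed C57BL/6 and 129 Sv background before backcrossing to C57BL/6. By the study's methods these mice carry a floxed Brg1 allele, a reversible gene-trap allele (ΔR) and Cre expressed with YFP from the Foxp3 locus. They also carry the tamoxifen-activated recombinase FlpoER under the CAG promoter at R26. Of mice with this genotype, the study calls rKO1 those with more effector/memory-like CD4 cells in blood at 3 weeks of age. It reports severe signs of inflammation in rKO1 mice by that age. Both libraries, by the methods and their titles, share Cre, FlpoER and TAM. By the study's account the cells were sorted as CD4+ CD25+ YFP+ with an activated surface phenotype that included high CD44. They were then split by the GFP of the trap: GFP+ for Brg1-deleted and GFP− for Brg1-reexpressed.

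The labels of these libraries disagree with each other. The library titled Brg1-deleted has the genotype R26CAG-FlpoER BrgF/F Foxp3YFP-Cre/YFP-Cre in its description, and its value column is headed WT(a). The library titled Brg1-reexpressed has a genotype with BrgF/+, and its column is headed Rko with treatment(a). Neither BrgF/F nor BrgF/+ includes the ΔR allele, and only the latter header names a treatment. The shared TAM, the GFP split and the Brg1 contrast thus rest on the titles and methods, and these labels leave them uncertain. Conditions were taken from the titles, so the libraries are called here the library labelled Brg1-deleted and the library labelled Brg1-reexpressed, or the deleted and the reexpressed library for short. How many mice were pooled in each is not given in the sources used here.

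Treg cells hold back immune responses and depend on the transcription factor Foxp3. On activation they lose receptors that keep them in lymph nodes, such as Ccr7, and gain receptors and effector molecules that they use in inflamed tissue. BRG1, the product of Smarca4, is the ATPase that drives the BAF (SWI/SNF) chromatin remodelling complexes, which open DNA at promoters and enhancers. In this model a gene trap stops the Brg1 transcript early until FlpoER removes it, and Cre removes part of the floxed allele.

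The libraries held 17436223 (deleted) and 19975022 (reexpressed) reads on annotated genes, so that 1 read was worth 0.0573 and 0.04998 CPM (reads scaled to library size). FPKM was scaled by a trimmed mean of log ratios, which took out an overall log2 difference of −0.07 (reexpressed minus deleted), and differences are log2(scaled FPKM + 0.1), reexpressed minus deleted. A gene was called higher or lower at 2-fold or more. With 1 library a side no p-value or replicate error can be given. Intervals beside folds are exact 95% binomial intervals of the ratio of reads after the same scaling. They cover counting error only, as PCR reads without molecular identifiers are not independent molecules. The folds include the added 0.1 and the intervals do not, so for low genes a fold need not lie near the middle of its interval. Levels in a bulk library cannot tell fewer cells of a type from less RNA per cell.

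Smarca4 (Brg1, chromosome 9, 21616169 to 21704230, mm10), the targeted gene, stood at 10.9 scaled FPKM in the deleted and 9.23 in the reexpressed library. It was thus 1.18-fold lower (1.09 to 1.28) in the library labelled Brg1-reexpressed, against the direction of the label. Protein-coding genes with scaled FPKM of at least 5 and 5737 to 25884 bases of merged exons had log2 quartiles of −0.32 and 0.12. Smarca4, with 6475 bases, lay inside these at −0.23, and between −0.30 and −0.12 over the processing settings. Whether length has a part in its difference was not tested. FPKM sums reads over the whole gene, on both sides of the trap, and reads by exon were not analysed here. In the total Treg pair with the same labels it stood at 6.13 and 9.51, 1.54-fold higher in the reexpressed library.

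Most genes were close between the libraries: 75.8% of the 11469 lay within 1.5-fold, and 5% to 95% of the differences spanned −0.80 to 1.25 on the log2 scale. There were 815 genes at least 2-fold higher in the reexpressed library (7.11%) and 351 lower (3.06%), in all 10.2%. At scaled FPKM of at least 5 in either library, 302 of 6728 genes were higher (4.49%) and 60 lower (0.892%), in all 5.38%. Calls were thus more often upward, and the lean was stronger among well expressed genes. Of the 815 higher genes, 424 were below FPKM 1 in the deleted library, and of the 351 lower genes 254 were below FPKM 1 in the reexpressed library, so these entered through the library in which they were high. The whole counting interval lay beyond 2-fold for 342 of the higher and 99 of the lower genes.

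Pairs of single total Treg libraries with the same Brg1 state by their labels give a scale for such counts. Brg1-sufficient Treg cells of mosaic mice against WT had 14.5% of genes at least 2-fold apart, and 9.9% at scaled FPKM of at least 5. Brg1-deleted Treg cells of rKO1 mice after TAM against those without TAM had 10.5% apart, and 4.42% at scaled FPKM of at least 5. The 10.2% of the aTreg pair was below both shares over all genes, and its 5.38% lay between both shares at scaled FPKM of at least 5.

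**Figure D1:**
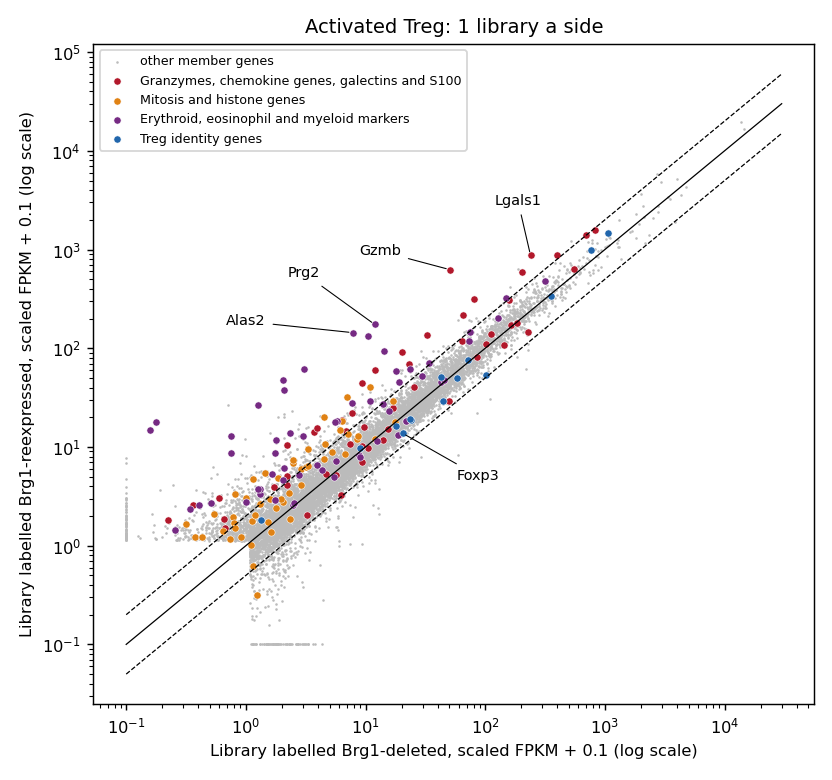
Each point is a gene, with the scaled FPKM + 0.1 of the library labelled Brg1-deleted on the x axis and of the library labelled Brg1-reexpressed on the y axis, both on log scales; the solid line marks equal levels and the dashed lines 2-fold. Effector genes such as Gzmb and Lgals1 and markers of red cells and eosinophils such as Alas2 and Prg2 stand above the upper dashed line, while the Treg identity genes stay between the lines.

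The genes that define Treg cells were well expressed in both libraries. Of 14 Treg identity genes none was 2-fold apart, and their median difference was −0.09 against −0.01 over all genes. Foxp3 (chromosome X, 7573644 to 7595245) stood at 20.3 in the deleted and 13.7 in the reexpressed library, 1.48-fold lower (1.38 to 1.60). Its exons overlap those of other genes over 31.5% of their length, so some reads may belong to those. Among genes named below, the same limit holds for S100a4 (51.7%), Hist1h2ai (35.1%), Tnfrsf18 (27.2%), Rpl30 (24.8%), Spry1 (24.4%) and Ebi3 (23.4%), among others. Il2ra, the high-affinity IL-2 receptor chain CD25 used in the sort, was at 58.5 and 50.1. Ctla4, a brake on costimulation, was at 72.0 and 75.1, and Ikzf2 (Helios) at 42.6 and 51.0. The widest gaps in the list were in Gpr83, a receptor of Treg cells, at 102 and 52.9, and Lrrc32, which holds latent TGF-beta on the surface, at 44.6 and 28.8. Tnfrsf4 (OX40) was at 1063 and 1475.

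The genes of the sort reported here were also close. Cd44 stood at 11.5 and 12.2. Cd4 was at 57.7 and 42.3. Cd3e, a chain of the T cell receptor complex, was at 229 and 94.9, 2.41-fold lower (2.34 to 2.48), whereas the partner chains Cd3d (854 and 1157) and Cd3g (837 and 869) were not lower. The receptor constant regions were within 1.12-fold of each other: Trac was at 3507 and 3260, Trbc1 at 2780 and 2747 and Trbc2 at 4753 and 4250. The label of T cells thus held in both libraries, and Cd3e moved apart from the rest of its complex.

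Among 8 suppressive cytokines and ectoenzymes, 2 were higher and none lower. Il10, which restrains myeloid and T cells, rose from 9.18 to 25.1, 2.72-fold (2.34 to 3.21). Fgl2, a secreted suppressor of dendritic cells, was at 6.76 and 17.2. Ebi3, a subunit of IL-35 and IL-27, went the other way at 52.8 and 32.8, and Tgfb1 was at 12.7 and 8.20. The list's median was 0.07.

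Genes of naive and resting T cells leaned lower in the reexpressed library, with a median of −0.41, 2 of 20 called lower and none higher. Ly6c1 was at 22.3 and 10.7, 2.08-fold lower (1.83 to 2.38), and the other, Dapl1, was low at 3.13 and 1.05. Ccr7, which guides cells into lymph nodes, was at 337 and 213, 1.59-fold lower (1.54 to 1.63). The transcription factors Foxp1 (11.3 and 6.51) and Lef1 (25.0 and 16.2) were also lower by less than 2-fold. Bach2, a repressor of effector programs, was at 2.22 and 1.70. Bach2 and Ccr7 are also the naive genes among the target genes the study displays, and neither reached 2-fold here. That list was chosen with libraries of this series in view and is not independent evidence of a direction.

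Granzymes and other cytolytic granule genes had 7 of 12 higher, none lower and a median of 1.18. Gzmb (chromosome 14, 56258838 to 56262260), a protease that triggers death of target cells, stood at 50.4 in the deleted and 626 in the reexpressed library, 12.4-fold higher (11.7 to 13.2). Gzma rose from 9.29 to 44.1, 4.71-fold (4.02 to 5.64). Gzmc was at 6.26 and 18.5, and Nkg7, a membrane protein of cytolytic granules, at 203 and 590. Prf1, the pore-forming perforin, was far lower in level at 1.62 and 3.84 (named after its values were seen). Gzmf and Gzmk, both low, completed the 7, and Gzmb stood well apart from the others.

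Chemokine ligands had the highest median of the T cell lists, 2.20, with 6 of 8 higher and none lower. Ccl4 was at 11.8 and 60.5, 5.10-fold higher (4.28 to 6.198), and Ccl5 at 20.2 and 91.9, 4.54-fold higher (4.06 to 5.13). Both recruit T cells and monocytes. Ccl3 was at 2.12 and 10.3, and Xcl1, which recruits cross-presenting dendritic cells, at 7.60 and 21.9. Among 15 chemokine receptors 3 were higher, none lower and the median was 0.54. Cxcr6, a receptor of tissue T cells, rose from 32.3 to 136, 4.19-fold (3.93 to 4.48), and Ccr2, which answers ligands made at inflamed sites, from 3.61 to 14.0. Ccr8 was at 63.8 and 117, Gpr15 at 6.08 and 3.19, and Cxcr3, a receptor for interferon-induced chemokines, at 111 and 140. Receptors thus split, with Cxcr6 and Ccr2 beyond 2-fold and Cxcr3 well inside it.

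Receptors that tune T cell activity changed in part. Of 17 costimulatory and coinhibitory receptors 3 were higher, none lower and the median was 0.09. Tigit, an inhibitory receptor of effector Treg cells, was at 72.9 and 195, 2.68-fold higher (2.51 to 2.86). Cd160 was at 26.3 and 66.6, Havcr2 (TIM-3) at 0.432 and 2.44, Icos at 16.5 and 26.3, and Pdcd1 (PD-1) at 103 and 69.0. Among 4 killer lectin and NK receptor genes 3 were higher. Klrg1, which marks terminally differentiated effector Treg cells, was at 59.5 and 195, 3.27-fold higher (3.09 to 3.47), the NK receptor genes Klrb1f (1.11 and 2.93) and Ncr1 (0.291 and 1.36) were low, and Cd7 was at 32.2 and 63.4. Of 13 TNF receptor genes only Tnfrsf14 (HVEM) was called, at 5.72 and 12.4. That is 7.69% called higher, against 7.11% over all genes. Tnfrsf18 (GITR) was at 764 and 988 and Cd27 at 311 and 234.

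Transcription factors of effector Treg cells had a median of 0.38, with 2 of 18 called higher (11.1%, against 7.11% over all genes) and none lower. Id2, an inhibitor of E proteins, was at 134 and 274, 2.05-fold higher (1.99 to 2.11), and Pparg, a factor of tissue Treg cells, was low at 0.644 and 2.79. Maf was just inside the threshold at 8.67 and 17.3, 1.98-fold (1.87 to 2.13). Tbx21 (T-bet), which sets the Th1-like program, was at 8.34 and 12.4, Prdm1 (Blimp-1) at 1.68 and 2.71, and Rora at 5.27 and 7.90. Of 15 effector cytokine genes 3 were higher and none lower, Il4 at 2.01 and 7.50, Il2 at 0.636 and 2.06 and Csf2 at 0.280 and 2.11. Ltb (lymphotoxin beta), the most abundant of the cytokines named here, was lower by less than 2-fold at 2161 and 1178, Fasl was at 6.73 and 12.7 and Tnfsf8 at 9.93 and 5.43. Cytokine receptors and their SOCS feedback genes showed none of 22 beyond 2-fold, with a median of −0.17. The widest were the low Il1rl1 (ST2, the IL-33 receptor) at 0.730 and 1.51 and Il6st, the shared chain of IL-6 family receptors, at 4.46 and 2.55. Il1r2, the decoy receptor for IL-1, was at 25.9 and 44.0 and Il4ra at 19.6 and 12.95. Il21r was at 78.7 and 59.3 and Il2rb at 280 and 217.

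Galectins, S100 proteins and annexins had 9 of 19 higher, none lower and a median of 0.95. Lgals1 (galectin-1) was at 239 and 874, 3.66-fold higher (3.53 to 3.79). S100a6 was at 80.5 and 312, 3.87-fold higher (3.69 to 4.07), and S100a4 at 3.83 and 15.6. These small calcium-binding proteins and galectins are common in activated and tissue T cells and also in myeloid cells. Crip1 was at 65.7 and 218. In the Ly6 family 3 of 8 were higher and 1 lower, with Ly6d at 1.96 and 9.01, Ly6g5b at 0.523 and 3.18, Ly6i at 0.339 and 1.55, Ly6c1 lower as above, Ly6a (Sca-1) at 304 and 540 and Ly6e at 1355 and 804. Of 13 integrins and adhesion genes none was called, with a median of 0.00, Vcam1 at 2.67 and 5.10, Itga6 at 7.99 and 4.75, Itgal at 29.996 and 21.7 and Itga4 at 5.44 and 4.23.

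The study shows an activation and effector list of Brg1 target genes, which it defined on total Treg libraries of this series and displays with the aTreg values. Its direction is therefore not independent evidence, and whether the aTreg values had a part in the choice is not given in the sources used here. Of its 19 genes compared, 13 were higher and none lower, with a median of 1.55. Its proliferation list had 4 of 18 higher, none lower and a median of 0.58.

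**Figure D2:**
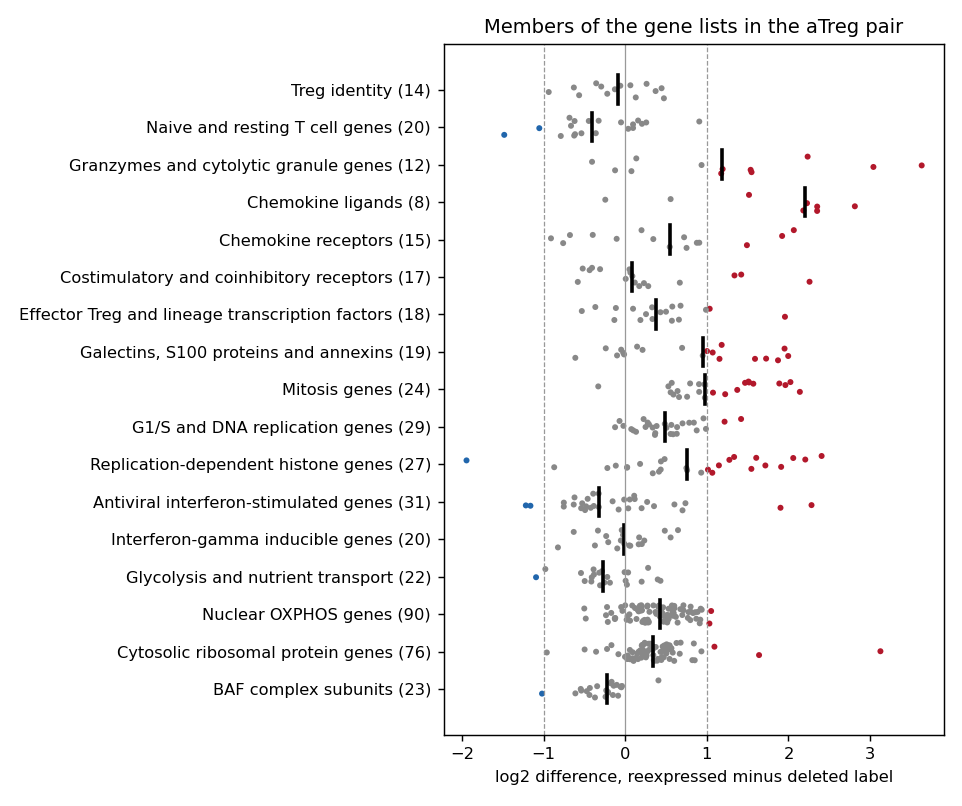
Each point is a gene and each row a gene list with the number of genes compared in brackets; the x axis is the log2 difference of scaled FPKM, reexpressed minus deleted, red and blue points are at least 2-fold higher and lower, and the thick bars are medians. Chemokine ligands (median 2.20) and granzymes (1.18) sit farthest to the right, and naive T cell genes (−0.41) to the left.

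Genes of the cell cycle leaned higher in the reexpressed library, most of all those of mitosis. Of 24 mitosis genes 23 lay above 0, 11 were at least 2-fold higher, none was lower and the median was 0.97. Ube2c, which feeds ubiquitin to the anaphase-promoting complex, was at 4.43 and 19.9, 4.41-fold higher (3.86 to 5.23). Its exons overlap those of other genes over 22.8% of their length, so some reads may belong to those. Ccnb2 (cyclin B2) was at 10.8 and 40.2, 3.70-fold higher (3.28 to 4.25), and its partner Ccnb1 at 2.36 and 6.71. Birc5 (survivin), which acts in chromosome segregation and blocks cell death, was at 6.28 and 18.1, 2.85-fold higher (2.56 to 3.24). Nusap1, a spindle protein, was at 2.38 and 7.27, and Aurkb, the kinase partner of Birc5, at 3.10 and 6.18. Mki67, the gene of the Ki-67 antigen, was low in both libraries at 0.701 and 1.59. Most of the mitosis genes were below 10 FPKM in both libraries, so the shift is in a low level.

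Genes of S phase entry and DNA replication moved less: 2 of 29 were higher (6.90%, against 7.11% over all genes) and none lower. Their share of higher calls was thus no larger than over all genes, but 26 lay above 0 and the median was 0.48. Gins1, a part of the replicative helicase, was at 2.92 and 7.96, Ccne2 (cyclin E2) at 0.944 and 2.33, Ccne1 (cyclin E1) at 4.81 and 9.65, Rrm2, which makes deoxynucleotides, at 12.4 and 22.9, and Rfc4 at 27.9 and 50.05. Replication-dependent histone genes had 12 of 27 higher and 1 (Hist2h4) lower, with a median of 0.76, and Hist1h2ai was at 6.83 and 31.9. Copies of the histone genes are alike in sequence, and how reads were split between them is uncertain.

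Mitotic genes share promoter letters that G2/M repressor complexes and NF-Y are known to bind, the CHR element (TTTGAA) and the CCAAT box (CCAAT). RefSeq promoter windows (GRCm38.p6, 250 bases before to 50 after the start) were matched by symbol for 7483 of 9349 protein-coding genes, 1 window a gene. TTTGAA, read on both strands, was found in 12.1% of all these windows, in 22.7% of the 339 windows of higher genes, in 15.2% of the 112 of lower genes and in 15 of the 20 mitosis windows (75%). CCAAT was found in 39.5%, 36.6%, 34.8% and 70% of the same sets, and both together in 12 of the 20 mitosis windows against 5.01% of all. Of the 10 mitosis genes with a window that were called higher, TTTGAA was in 5 (50%), CCAAT in 6 (60%) and both in 4 (40%), lower shares than over the whole mitosis list. Shown are 3 of those 10, picked because they hold both motifs in the 250 bases before the start, and Gzmb, the most changed granule gene, for contrast. Capitals mark TTTGAA or CCAAT on either strand, and each sequence reads 5′ to 3′ along its gene.
Ccnb2, chr9:70421555-70421804, minus strand: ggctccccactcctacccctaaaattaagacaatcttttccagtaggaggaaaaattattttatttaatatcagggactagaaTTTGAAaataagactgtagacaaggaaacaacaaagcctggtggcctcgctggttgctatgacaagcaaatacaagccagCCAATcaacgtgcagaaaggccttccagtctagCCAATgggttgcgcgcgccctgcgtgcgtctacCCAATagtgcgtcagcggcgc
Ube2c, chr2:164769679-164769928, plus strand: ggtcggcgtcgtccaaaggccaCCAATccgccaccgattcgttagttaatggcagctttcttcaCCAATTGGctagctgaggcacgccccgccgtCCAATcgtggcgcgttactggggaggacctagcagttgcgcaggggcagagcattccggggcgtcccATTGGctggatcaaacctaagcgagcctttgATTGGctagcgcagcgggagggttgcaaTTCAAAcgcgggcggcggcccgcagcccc
Mki67, chr7:135716380-135716629, minus strand: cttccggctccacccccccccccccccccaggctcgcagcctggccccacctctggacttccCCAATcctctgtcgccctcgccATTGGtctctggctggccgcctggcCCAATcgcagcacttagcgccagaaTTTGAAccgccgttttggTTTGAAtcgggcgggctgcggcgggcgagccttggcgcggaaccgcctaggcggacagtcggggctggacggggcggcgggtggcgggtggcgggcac
Gzmb, chr14:56262335-56262584, minus strand: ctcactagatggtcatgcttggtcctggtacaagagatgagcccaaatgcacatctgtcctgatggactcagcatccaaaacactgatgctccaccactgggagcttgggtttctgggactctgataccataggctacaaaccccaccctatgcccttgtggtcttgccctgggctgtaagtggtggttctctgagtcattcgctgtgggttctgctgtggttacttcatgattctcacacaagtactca

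Ccnb2 and Mki67 hold 3 CCAAT boxes each, Ube2c 6, and the Gzmb window holds neither motif. A match is a stretch of letters and not a bound site. The letters of other elements were searched in the same windows. The interferon element ISRE (GAAANNGAA) was in 7.83% of all windows, 15.6% of those of higher genes and 7.14% of those of lower genes. GAS (TTCNNNGAA) was in 7.02%, 8.55% and 5.36%, AP-1 (TGANTCA) in 4.45%, 7.37% and 6.25%, and NF-kappaB (GGGNNTTCC) in 7.75%, 6.19% and 5.36%. ISRE and GAS letters can overlap each other.

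Cell death and survival genes had 4 of 26 higher and none lower, with a median of 0.29. Those were Birc5, Pmaip1 (Noxa, a p53 target that promotes death) at 3.03 and 7.06, and Bcl2a1a and Bcl2a1d, near-identical copies of a survival gene whose reads are hard to divide. Bcl2, which protects resting lymphocytes, was at 25.7 and 19.7, 1.31-fold lower (1.25 to 1.37).

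Interferon-stimulated genes did not move as a group. Of 31 antiviral genes 2 were higher (6.45%, against 7.11% over all genes) and 2 lower. Their median was −0.33, and 19 lay below 0. Rsad2 (viperin) was at 3.19 and 15.9, 4.86-fold higher (4.35 to 5.73), and Ifi44 was low at 0.228 and 1.13. The lower ones, Slfn5 (1.58 and 0.623) and Oasl2 (1.58 and 0.650), were low in both libraries. Usp18 was at 47.0 and 27.8, Ifit3 at 13.5 and 7.94 and Xaf1 at 14.5 and 24.2. None of 20 interferon-gamma inducible genes was called, with a median of −0.02, and Gbp2 was at 44.8 and 28.8, Cxcl10 at 16.9 and 24.9 and Tgtp2 at 5.62 and 8.84. None of 17 MHC class I genes was called either, with a median of −0.03, Tap2 at 59.9 and 41.5 and Psme2 at 485 and 629.

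Few early response genes were called, and those called were lower. Jun (chromosome 4, 95049034 to 95052222), an AP-1 subunit, had the widest fall among named protein-coding genes, from 11.5 to 2.49, 4.49-fold (3.88 to 5.55). It was the only one of 16 AP-1, heat shock and dissociation genes called, in a list with a median of −0.26 and 13 genes below 0. Fos was at 11.4 and 7.31, Btg2 at 81.6 and 58.9 and Hsph1 at 9.93 and 7.30. Of 17 TCR early response genes, with a median of −0.04 and 7 above 0, only Spry1, a feedback inhibitor of kinase signalling, was called, at 15.3 and 6.39, 2.38-fold lower (2.12 to 2.72), and Myc was at 82.9 and 60.1, Cd6 at 80.9 and 60.7 and Cd5 at 119 and 93.6. None of 14 NF-kappaB genes was called, with a median of −0.10, and Rela was at 59.5 and 43.7. None of 14 TGF-beta genes was called, with a median of −0.17, Smad7 at 7.34 and 4.17 and Tgfbr2 at 8.84 and 6.37.

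Metabolic lists were mostly within 2-fold. Glycolysis and nutrient transport genes had a median of −0.27, and only Gapdh was called, at 9.23 and 4.27. Gapdh has many processed pseudogene copies, and its low value for so abundant a transcript makes it uncertain. Eno1 was at 317 and 160, 1.97-fold lower (1.94 to 2.01), and Aldoa at 260 and 184. Cholesterol and fatty acid synthesis genes had a median of 0.19 and none of 25 called, with Cyp51 at 5.66 and 11.4 and Sc5d at 7.93 and 14.5. None of 20 unfolded protein response genes was called, with a median of −0.04 and Pdia4 at 65.2 and 42.8.

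Most genes of the respiratory chain differed by small steps. Of 90 nuclear OXPHOS genes 78 lay above 0, with a median of 0.43, and none was called lower. The 2 called higher were Ndufs5 (38.5 and 79.9) and Atp5mpl (35.4 and 72.3), 2.22% against 7.11% over all genes. All 13 mitochondrially encoded genes lay above 0, with a median of 0.44. Only mt-Atp8 was called (7.69%), at 11.8 and 30.8, and mt-Nd5 was at 248 and 444. Cytosolic ribosomal protein genes had a median of 0.34, with 69 of 76 above 0. Called higher were 3 (3.95%): Rpl21 at 1.497 and 13.9, Rpl30 at 13.7 and 42.8 and Rps27a at 113 and 241. Rps2 was at 298 and 153. The Rpl21 pseudogenes Rpl21-ps8 (1.97 and 21.6) and Gm12411 (1.74 and 19.8) moved with Rpl21, so these copies cannot be told apart (they were named after their values were seen).

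The difference between the libraries also moved with transcript length. In 5 equal groups by length of the 5867 protein-coding genes with scaled FPKM of at least 5, the median difference went from 0.25 in the shortest (69 to 2015 bases of merged exons) to −0.11 in the longest (5737 to 25884 bases), and the share of higher calls from 10.1% to 0.596%. The median exon length was 1578 bases for OXPHOS, 1776 for ribosomal protein, 1662 for granzyme, 1190 for chemokine ligand and 4150 for mitosis genes. After a smooth trend with length was removed, the medians of OXPHOS, ribosomal protein and mitochondrially encoded genes went to 0.26, 0.22 and 0.19, while those of granzymes (1.08), chemokine ligands (1.93), galectins and S100 (0.74) and mitosis genes (1.05) stayed large. The part of length in single differences was not tested.

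**Figure D3:**
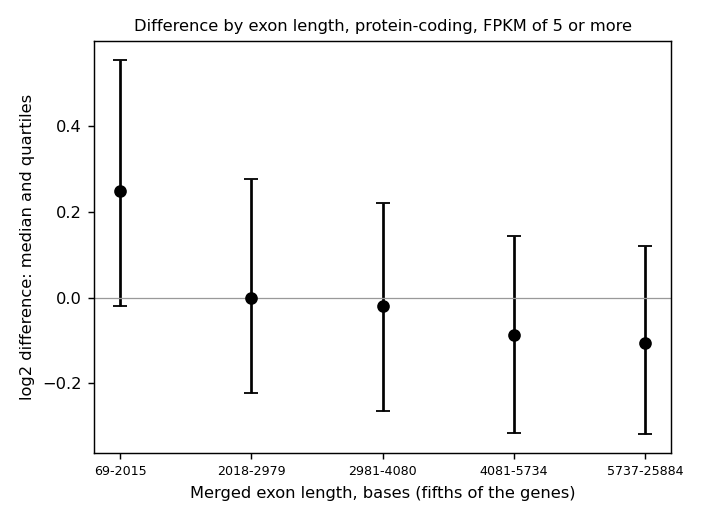
Points are median log2 differences, reexpressed minus deleted, of protein-coding genes with scaled FPKM of at least 5 in 5 equal groups by merged exon length, and bars span the quartiles. The median falls from 0.25 in the shortest group to −0.11 in the longest.

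Few chromatin genes were called. Of 23 BAF subunit genes 22 lay below 0, with a median of −0.22. The only one called was Actb, the gene of beta-actin, which is both a BAF subunit and a main part of the cytoskeleton, at 3827 and 1886, 2.03-fold lower (2.01 to 2.05). Arid1a was at 8.62 and 5.60, Smarcc2 at 8.04 and 5.50 and Smarce1 at 16.3 and 12.0. The BAF genes are long, with a median of 6851 bases, and with the length trend removed their median was −0.15. None of 20 Polycomb and H3K27 demethylase genes was called (median −0.04). Of 11 DNA methylation and TET genes 1 was higher, Tdg at 0.916 and 2.74 (median −0.06), and Dnmt1 was at 5.35 and 4.29.

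Many markers of other cell types were higher in the reexpressed library too. Of 22 red cell genes in 2 lists 15 were higher and none lower, and their summed level went from 230.3 to 817 scaled FPKM. Alas2, the first enzyme of heme synthesis in red cells, was at 7.68 and 144, 18.5-fold higher (16.8 to 20.97), whereas Gata1, a transcription factor of red cell precursors, eosinophils and mast cells, was at 18.7 and 13.2. Hemoglobin genes, which were set aside, took 0.117% of the reads in the deleted and 2.21% in the reexpressed library. Of 7 eosinophil genes 6 were higher and none lower, with a summed level of 17.4 and 252. Prg2, the major basic protein of eosinophil granules, was at 11.8 and 174, 14.6-fold higher (12.7 to 17.3), while Siglecf had 0 and 4 reads and Il5ra 0 and 6. The second red cell list, and the eosinophil, macrophage and MHC class II lists, were added after the values were seen.

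Myeloid, macrophage and MHC class II genes had 15 of 29 higher and none lower, with a summed level of 936 and 1679. H2-Ab1, an MHC class II chain, was at 18.0 and 58.4, 3.23-fold higher (3.00 to 3.50), and Cd74, the class II chaperone, at 149 and 324. Fcgr3, a receptor for antibody, was at 5.70 and 18.2, and Spic, a factor of red pulp macrophages, at 5.43 and 18.0. In the myeloid marker list alone 7 of 12 were higher and none lower, with a median of 1.23. Of its defining markers, Adgre1 (1.21 and 3.24) and Cd14 (0.904 and 2.69) were called higher at low levels. Csf1r was flat at 2.36 and 2.50, Lyz2 was at 314 and 481, and Itgam had 2 and 3 reads. Of 10 B cell markers 3 were compared, with Ms4a1 (CD20) at 0.208 and 1.12, Cd79b at 57.1 and 36.7 and Cd79a at 4.84 and 5.48, and Pax5 had no reads in either library. Jchain, which joins antibody chains in plasma cells, was at 9.18 and 34.3, the plasma cell markers Mzb1 and Tnfrsf17 had at most 5 reads, and 81 of the 107 immunoglobulin genes set aside were at least 2-fold higher and 4 lower.

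Most markers of other lymphocytes that use granzymes had few reads in both libraries. Among the CD8 and NK markers, Cd8a had 7 and 59 reads, Klrb1c 12 and 40, Ncr1 8 and 41, Eomes 18 and 34, and Gzmk 14 and 38, while Cd8b1 was better expressed at 16.1 and 10.7 scaled FPKM. The gamma-delta marker Tcrg-C1 was at 10.2 and 8.53. Of 212 protein-coding genes higher at scaled FPKM of at least 5, 28 were in a marker list of another cell type (13.2%). In one of the effector or cell cycle lists were 32 (15.1%), with some genes in both, and most were in neither. Some of these marker lists were added after the values were seen. The share of all genes that the same lists hold is not given, so these shares cannot be weighed against each other. What part cells of these types have in the higher effector or cell cycle genes was not tested.

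**Figure D4:**
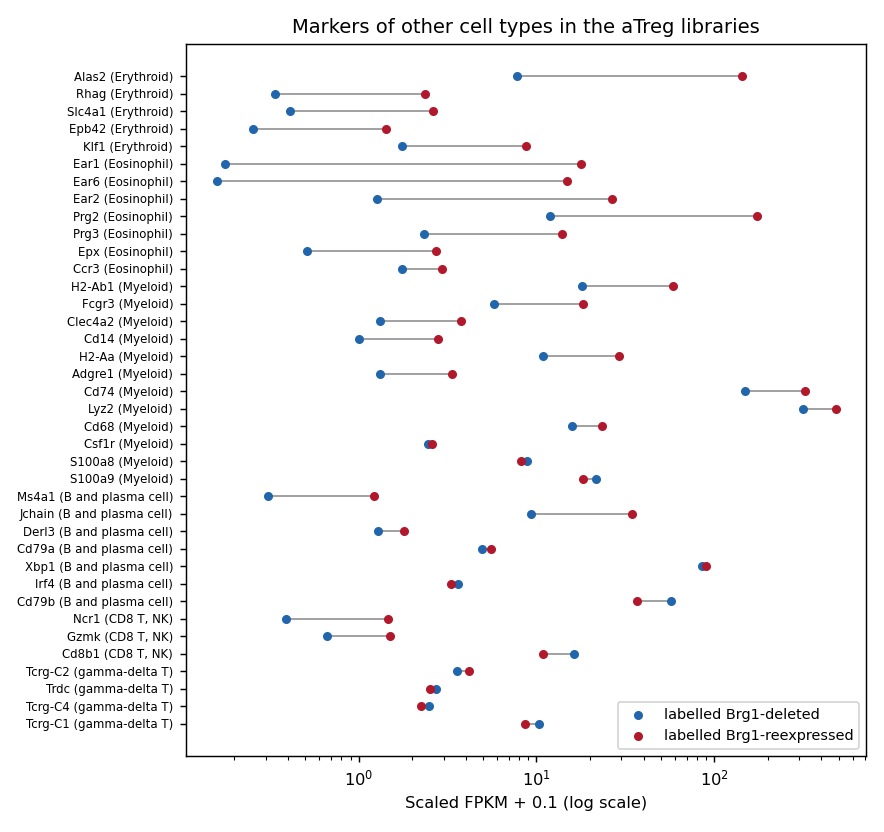
For marker genes of other cell types with FPKM of at least 1, the scaled FPKM + 0.1 (log scale) in the library labelled Brg1-deleted is in blue and in the library labelled Brg1-reexpressed in red. Red cell and eosinophil markers and most myeloid markers are higher in red, with Alas2 at 7.68 and 144, while the gamma-delta T cell markers are close in both.

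The sex-linked genes moved as well. The Y-linked genes set aside had 2892 reads in the deleted and 1392 in the reexpressed library, with Eif2s3y at 1739 and 908, and Xist, the X inactivation RNA, had 217 and 834 reads. Y-linked and Xist reads were thus present in both libraries, the former more in the deleted and the latter more in the reexpressed library. Both descriptions give the Foxp3YFP-Cre/YFP-Cre genotype, which the study gives for female rKO mice and not for males. The Y-linked reads are at odds with libraries of female cells alone. The sex of the mice is not given in the sources used here, and the source of these reads was not tested. Xist was named after its values were seen.

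By size alone, the 10 widest rises among protein-coding genes with scaled FPKM of at least 10, without families of near-identical copies, included Apol11b, Car1, Alas2, Ccl8, Prg2, Car2, Gzmb and Cd24a. Apol11b was at 0.613 and 26.7, 37.5-fold higher (29.7 to 66.2). Car1 (1.93 and 47.5) and Car2 (10.5 and 133) are abundant in red cells, Ccl8 (0.657 and 12.8) is a chemokine of macrophages, and Cd24a (2.32 and 23.2) is found on red cell precursors and many leukocytes. Of the genes named here, Gzmb was the only one that a cytolytic T cell list held. Left out as near-identical copies, the eosinophil ribonuclease genes Ear1 and Ear6 had 1 read each in the deleted library against 253 and 273, log2 differences of 6.66 (5.36 to 13.16) and 6.55 (5.47 to 13.27).

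The 10 widest falls were smaller. After Jun came Gsta4, a glutathione transferase, at 85.4 and 21.9, 3.89-fold lower (3.54 to 4.30), and Ldhb, a lactate dehydrogenase subunit, at 109 and 30.6, 3.56-fold lower (3.32 to 3.84). Nrp1, a coreceptor found on thymus-derived Treg cells, was at 10.7 and 4.23. The others were Cd3e, the kinase gene Stk11 (22.95 and 9.57), Spry1, the nucleolar gene Fbl (51.7 and 21.8), the 14-3-3 gene Ywhaz (183 and 81.6) and Macrod1 (15.4 and 7.16). No gene of a marker list of another cell type was called lower among protein-coding genes.

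Noncoding genes were called more often than protein-coding ones. Among 9349 protein-coding genes 4.97% were higher and 1.55% lower, among 1083 pseudogenes 13.7% and 5.36%, and among 865 genes of other types 20.7% and 15.6%. Of 186 T cell receptor segments 26 were higher and 14 lower, with a median of 0.08, and these are very short. The antisense gene 2610204G07Rik was at 58.8 and 8.15, 7.14-fold lower (6.10 to 8.58), and the lincRNA Gm19585 at 17.2 and 60.7, 3.51-fold higher (3.25 to 3.83); both were named after their values were seen.

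The total Treg pair of rKO1 mice after TAM carries the same labels, reexpressed against deleted, and shares no library with the aTreg pair. In it 8.3% of 12512 genes were higher and 9.22% lower, in all 17.5%. Of 10793 genes compared in both pairs, 384 were called in both, which is 43.5% of the 883 aTreg calls and 27.6% of the 1393 total Treg calls among them. Of these, 190 were higher in both, 78 lower in both and 116 went opposite ways, 86 of them higher in aTreg and lower in total Treg cells. Across 6121 genes with scaled FPKM of at least 5 in each pair, the differences had a Pearson r of 0.30 and a Spearman rho of 0.36. Genes are not independent replicates, and gene lengths are shared by both pairs. By the study's account, total Treg and aTreg cells were isolated and sequenced in separate experiments.

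Cell cycle and granule lists had medians above 0 in both pairs. Mitosis genes had 11 of 24 higher in the aTreg and 23 of 24 in the total Treg pair, with medians of 0.97 and 1.63. Granzymes had 7 and 6 of 12 higher, with medians of 1.18 and 0.99, and the total Treg list had 1 lower. Gzmb was 12.4-fold higher in aTreg and 7.02-fold in total Treg cells, Lgals1 3.66-fold and 4.15-fold, and Klrg1 3.27-fold and 5.37-fold. Genes that the study's naive list holds differed far more in total Treg cells, where Ccr7 was at 198 and 37.6 and Bach2 at 3.75 and 0.369 scaled FPKM. Bcl2 was likewise 1.31-fold lower in aTreg and 9.64-fold lower in total Treg cells. Whether the pairs differ in these genes was not tested, as each has 1 library a side.

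Other lists differed between the pairs in their counts. Chemokine ligands had 6 of 8 higher in aTreg cells, against 2 higher and 3 lower in total Treg cells, with medians of 2.20 and −0.42. Within that list Ccl5 was 4.54-fold higher in aTreg and 4.89-fold in total Treg cells and Ccl4 5.10-fold and 2.37-fold, while Xcl1 and Ccl22 were higher in aTreg and lower in total Treg cells. Myeloid, macrophage and MHC class II genes had 15 of 29 higher and none lower in aTreg cells, against none higher and 12 of 28 lower in total Treg cells. Glycolysis genes had a median of −0.27 in aTreg and 0.64 in total Treg cells, with Eno1 1.97-fold lower in the former and 2.004-fold higher in the latter, and Actb was 2.03-fold lower and 2.39-fold higher.

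**Figure D5:**
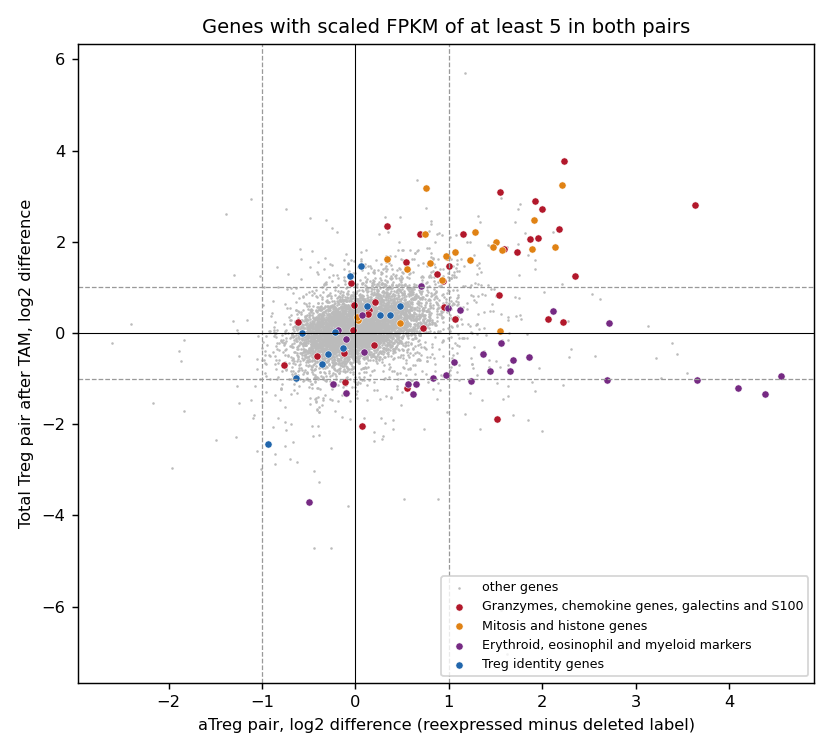
Each point is 1 of 6121 genes with scaled FPKM of at least 5 in each pair, with the log2 difference (reexpressed minus deleted) of the aTreg pair on the x axis and of the total Treg pair after TAM on the y axis; dashed lines mark 2-fold. Granzyme, galectin and mitosis genes lie mostly at the upper right, and many of the markers of red cells, eosinophils and myeloid cells that reach this level at the lower right, with exceptions such as Bpgm (2.72 and 0.21) above 0 in both.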

How the data were processed

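RNA was amplified with SMART-Seq v4 from sorted Treg cells and sequenced as paired reads. The authors deposited 1 FPKM value per Ensembl gene and library. The submitters' processing notes name HISAT2 2.0, StringTie 1.3.3b, featureCounts 1.5.0-p3 and mm10, with no roles or order. The annotation and the strand setting are not given in the sources used here. With exon lengths of GENCODE M21, 100% of values came out as whole reads (within 0.01), which gave read numbers and intervals. The 105 identifiers without a length in that annotation had no read numbers.

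FPKM was scaled by a trimmed mean of log ratios (30% of ratios and 5% of levels trimmed from each side), and log2(scaled FPKM + 0.1) was subtracted, which understates the change of low genes. Genes were taken at FPKM of at least 1 in either library and called at 2-fold. There was no test, as each group had 1 library. Differences in depth are covered by the exact binomial intervals only. The steps were tested on simulated data.

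Named genes were the 10 largest rises and falls among protein-coding genes with scaled FPKM of at least 10 (families with shared reads left out), up to 4 genes a list with the largest difference at scaled FPKM of at least 5, a set of genes always named, and up to 10 genes that went opposite ways in aTreg and total Treg cells. Other genes were named after their values were seen: calls that complete a small count, and genes that show the level of a list. Members, lists and rules were chosen with earlier results of these data known, and 4 marker lists were added after the values were seen. A few genes that these rules name are not reported here. Alternatives were the deposited scale, median centring, pseudocounts of 1 and 0.01, other filters, recovered reads, protein-coding genes and removal of trends with level or exon length. Python 3.11.15, NumPy 2.4.6, pandas 2.3.3, SciPy 1.17.1, statsmodels 0.14.6 and matplotlib 3.10.9 were used.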

Additional observations from a re-analysis of the deposited data

Results flagged for a closer look

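Of 116 genes at least 2-fold apart in opposite directions in the aTreg pair and the total Treg pair after TAM, 20 were protein-coding with scaled FPKM of at least 5 in each pair, and the 10 widest of these 20 were higher in the reexpressed library of aTreg cells and lower in that of total Treg cells. The differences between pairs were not tested, since each pair has 1 library a side. Among genes of T cells and other lymphocytes, Il4 had a log2 difference of 1.85 in aTreg and −1.91 in total Treg cells. Xcl1 had 1.52 and −1.89, and Cd160 1.34 and −2.11. In that total Treg pair 4 of 6 markers of CD8 T, NK and gamma-delta T cells were also lower, with a median of −3.72. These were 3 of 3 gamma-delta markers (median −4.71) and 1 of 3 CD8 and NK markers (median −0.53). In the aTreg pair 2 of 7 were higher and none lower, with a median of −0.12. There the 2 lists differed: 2 of 3 CD8 and NK markers were higher, with a median of 1.18. None of 4 gamma-delta markers was called, with a median of −0.14. Whether the shifts of genes and markers share a source was not tested. Among genes of myeloid cells and eosinophils, Clec4a3 had 1.997 and −2.16, Fcer1g 1.58 and −1.45, Tyrobp 1.64 and −1.39, Ear2 4.39 and −1.35, and Ccl8 4.09 and −1.20. Gp9, a platelet gene, had 1.92 and −1.28, and Gm3591 had 1.35 and −1.48. Ear2 belongs to a family of near-identical copies, and its value is uncertain.

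Hemoglobin genes, set aside from the comparison, took 2.21% of reads (2.21 to 2.22) in the library labelled Brg1-reexpressed against 0.117% (0.115 to 0.119) in the library labelled Brg1-deleted.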

How the results depend on the processing

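The main counts were 815 genes higher and 351 lower. With a pseudocount of 1 they were 438 and 162, at FPKM of at least 5 they were 298 and 62, with no filter on low values 2227 and 1604, on recovered reads of at least 5 CPM 423 and 202, over protein-coding genes 465 and 145, and without genes of under 1 kb of exons, an alternative chosen after seeing the data, 454 and 166. The other settings stayed within 1.5 times the main counts, the deposited scale giving 736 and 405 and removal of the exon length trend 681 and 411. Upward calls were 69.9% of all calls, 82.8% at FPKM of at least 5 and 58.1% with no filter. Genes called in both pairs in the same direction went from 268 to 92 at FPKM of at least 5, and in opposite directions from 116 to 28. Of 88 named genes called at 2-fold none changed sign, but 12 went under 2-fold in at least 1 setting: Id2, Ndufs5, Atp5mpl, Tnfrsf14, Rps27a, Cd74, Bcl2a1d, Hist1h2ao, Ly6c1, Pmaip1, Gapdh and Mki67. Of these, 8 did so with the exon length trend removed, 5 with the level trend removed, 5 with a pseudocount of 1 and 3 on the deposited scale, and the lowest log2 difference of Mki67 was 0.60. List medians near 0, such as those of integrins and suppressive cytokines, took either sign. The medians of OXPHOS, mitochondrially encoded and ribosomal protein genes fell with the length trend removed, as given above, and that of ribosomal protein genes was 0.19 with the level trend removed. No paired analysis was possible because each group had 1 library and no test was run, and for the same reason no replicate could be left out. Genes with few reads limit what can be read from single calls: 155 higher genes had at most 3 reads in the deleted library and 131 lower genes at most 3 in the reexpressed library.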
